A study of Mus musculus with 8 samples.

Results

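The motile cilia genes followed here are 35 transcripts of ciliated epithelial cells, found on the array by their current or older symbols. They and the other gene lists below were chosen with earlier results of these data known. Shares of all genes set beside their counts are therefore descriptions. All 35 had at least 1 probe, and all 35 were among the 17752 genes tested. The study measured total RNA of ovarian tumours from 8 female mice of the genotype C57BL/6JTgMISIIR-TAg. In these mice the promoter of Amhr2, the gene of the type II receptor for Müllerian inhibiting substance, drives the SV40 T antigen, so the oncogene is directed to cells in which that promoter is active. When tumours measured about 500 mm3, 4 mice received vehicle (0.5% hypermellose and 0.1% Tween 80) and 4 were dosed at 30 mg/kg with AZD1480, which blocks the kinases JAK1 and JAK2, in the same vehicle. Tumour tissue was collected 6 h later. Agilent arrays with 1 colour were used, 1 for each tumour, and either of the 2 slides carried 2 tumours of each treatment. All 8 tumours carry the transgene, so the data hold no tissue without T antigen.

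Motile cilia are beating projections built on an axoneme of doublet microtubules around a central pair. Dynein arms slide the doublets, radial spokes and linkers carry signals between the central pair and the arms, and tektins and other filament proteins stiffen the doublet wall. The transcription factor Foxj1, together with members of the RFX family, switches on this set of genes in cells that grow many motile cilia. In the female reproductive tract such cells line the oviduct, beside secretory cells, whereas most other cells carry at most a single primary cilium that lacks dynein arms and spokes.

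Values are log2 processed intensities minus the 75th percentile of the same array, called scaled log2 values. They compare 1 probe across arrays and do not rank genes against each other. Between 66.9% and 76.4% of probes were well above background on an array, and the 75th percentile lay between an intensity of 1492 and 5370. These arrays give no read depth, and the number of arrays limits the precision. AZD1480 replicate 1 stood apart from the rest. The median correlation of its values with those of the other arrays, across genes, was 0.874, against 0.958 to 0.972 for the other 7 arrays. Each result on treatment is therefore given with and without it. Because that array was singled out by its values, its distance from the others is a description and carries no test. The gap of a gene below is its log2 value on AZD1480 replicate 1 minus the median of the other 7 arrays, and a fold gap is the same difference as a ratio of intensities. Where a probe was dim there, that is not well above background, its gap has only a bound, set by the lowest signal that was well above background on that array.

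The promoters of the members are shown first, because the letters recognised by the RFX factors recur in them. RefSeq promoter sequences on GRCm38.p6, each running from 250 bases before a transcription start to 50 bases after it, were found for 30 of the 35 members (for Spag6, that of the copy Spag6l). Foxj1, Rsph1, Rsph4a, Stk33 and Tppp3 had no match. The motifs looked for on both strands, after other forms of them had been counted in the same sequences, were the RFX half-site GTTGCC, the full X-box, in which RFX half-sites face each other and several positions accept any base, and the forkhead motif GTAAACA. Matches to the half-site can overlap an X-box. GTTGCC stood in the promoter of 19 of 30 members, 63.3%, against 14.1% of the 27025 genes with a promoter in the table. The 19 were Rfx2, Rfx3, Dnaic2, Dynlrb2, Ccdc113, Tekt1, Tekt2, Tekt4, Spag6, Spag16, Hydin, Lrrc23, Mlf1, Enkur, Pifo, Cdhr3, Sntn, Mns1 and Ift172. The X-box was found in 5 of 30 members, Rfx2, Rsph9, Tekt4, Spag6 and Pifo, against 2.16% of genes. GTAAACA was found in 3 of 30, Ak7, Mlf1 and Sntn, against 4.05% of genes. A wider list of motile cilia genes, described further on, held GTTGCC in 20 of 57 promoters, 35.1%. These are counts of letters, given without a test.

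The 8 windows below are 60 bases before the start that hold the nearest GTTGCC match among those wholly before it. They are from the 5 members with the widest and the 3 with the narrowest gap on AZD1480 replicate 1 among those with a match before the start, the gaps of dim probes being taken at their bounds, read 5′ to 3′ on the gene's strand. Capitals mark GTTGCC or its reverse complement.
Ccdc113: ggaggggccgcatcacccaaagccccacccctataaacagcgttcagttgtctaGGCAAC
Lrrc23: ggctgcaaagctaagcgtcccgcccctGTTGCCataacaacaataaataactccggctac
Dynlrb2: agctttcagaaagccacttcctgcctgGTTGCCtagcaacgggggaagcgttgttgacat
Tekt1: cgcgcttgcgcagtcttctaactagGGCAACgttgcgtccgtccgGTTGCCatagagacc
Cdhr3: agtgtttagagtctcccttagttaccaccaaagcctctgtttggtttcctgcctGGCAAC
Rfx2: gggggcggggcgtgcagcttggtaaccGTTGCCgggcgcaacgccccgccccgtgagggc
Mlf1: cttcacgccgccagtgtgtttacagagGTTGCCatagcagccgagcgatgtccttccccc
Mns1: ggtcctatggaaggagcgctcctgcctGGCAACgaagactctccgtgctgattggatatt

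On GRCm38.p6 these windows lie at chr8:95534040-95534099 on the plus strand (Ccdc113), chr6:124779734-124779793 on the minus strand (Lrrc23), chr8:116504937-116504996 on the plus strand (Dynlrb2) and chr11:72361883-72361942 on the minus strand (Tekt1). The others lie at chr12:33092876-33092935 on the minus strand (Cdhr3), chr17:56831092-56831151 on the minus strand (Rfx2), chr3:67373965-67374024 on the plus strand (Mlf1) and chr9:72438430-72438489 on the plus strand (Mns1). Tekt1 alone among these 8 held 2 matches within its window. The window of Rfx2 shows that the gene of an RFX factor itself carries the letters. Members with and without GTTGCC overlapped widely in their values on AZD1480 replicate 1: with dim probes at their bounds, the gap ranged from -10.08 to -0.62 log2 in the 19 with it and from -9.41 to -2.17 in the 11 without it.

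In 7 of the 8 tumours the motile cilia genes were clearly measured and varied little. Of the 35 members, 34 were well above background on each of these 7 arrays, as were 15994 of the 17752 genes tested. The exception among the members was Spag17, a central apparatus gene that was dim on vehicle replicate 1. The SD over the 7 arrays had a median of 0.257 log2 over the members, against 0.313 over all genes tested. In 27 members the highest and lowest of the 7 arrays lay less than 1 log2 apart. The median of that range was 0.747 log2 over the members and 0.880 over all genes tested. The mean over the members was 0.71, 0.75, 0.89 and 1.23 in vehicle replicates 1 to 4, and 0.83, 0.86 and 0.93 in AZD1480 replicates 2 to 4. Vehicle replicate 4 was the highest of the 7 arrays in 25 of 35 members. The share over all genes is not given for these 25 or for the 27 above, so both counts describe the members alone.

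On AZD1480 replicate 1 the same mean was -4.51. This array was the lowest of the 8 for 35 of 35 members, where it was the lowest for 25.0% of all genes tested. It lay at least 2-fold below the lowest of the other 7 arrays in 33 members, against 11.0% of all genes, at least 4-fold in 29 (5.89% of all genes) and at least 16-fold in 22 (2.02% of all genes). The 2 members less than 2-fold below were Mns1 and Spag17. The median gap between this array and the median of the other 7 was -5.11 log2, a 34.5-fold difference, against 0.09 over all genes. On it 7 members were not well above background, against 736 of the 17752 genes tested. With the 7 members raised to the lowest signal well above background there, the median gap was -4.81 log2 and 21 members stayed at least 16-fold below. Among the other 7 arrays by themselves, 1 member lay 2-fold below the remaining 6 on any array: Spag17, at -8.61 on vehicle replicate 1 against -4.58 to -3.35. None lay 2-fold above them. RNA came from bulk tumour tissue, so fewer ciliated cells and less RNA per ciliated cell cannot be told apart.

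**Figure D1:**
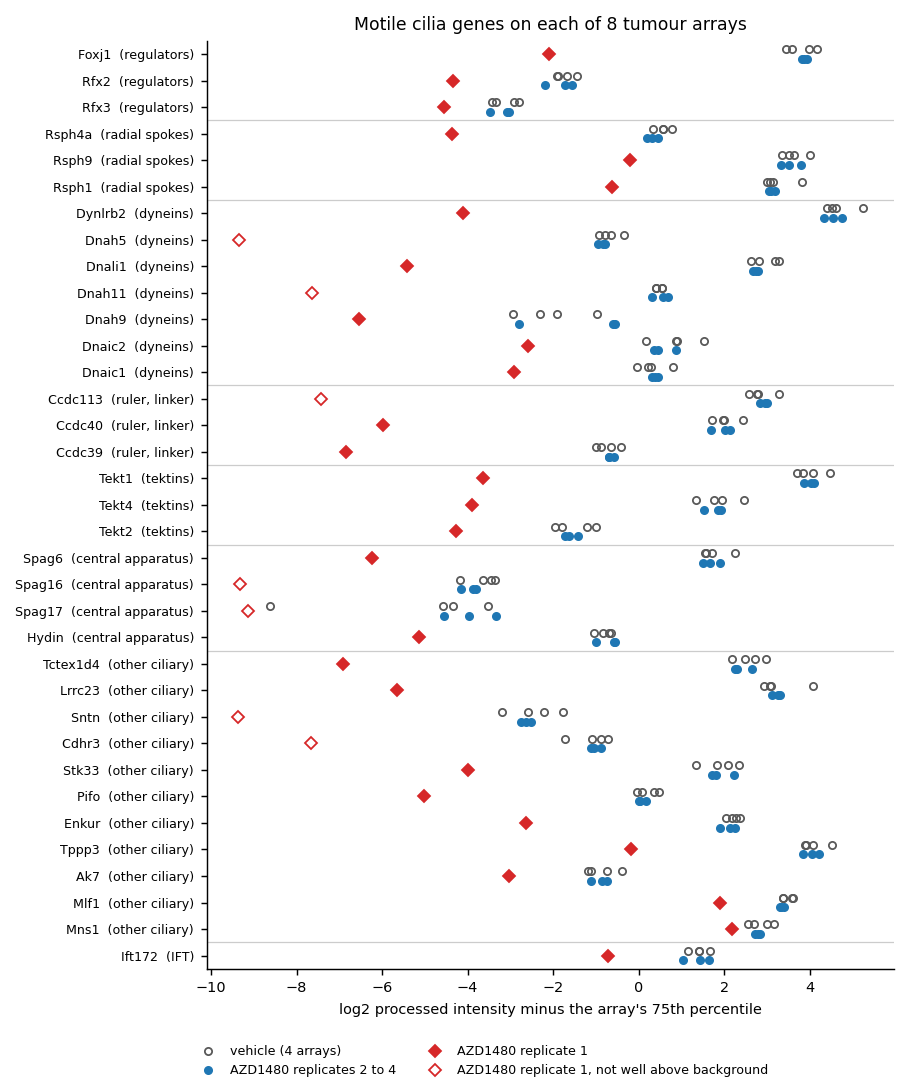
Scaled log2 value (x axis) of each of the 35 motile cilia genes (y axis, grouped by role) on 8 arrays: 4 vehicle arrays as open circles, AZD1480 replicates 2 to 4 as blue circles and AZD1480 replicate 1 as red diamonds, open where the probe was not well above background there. The diamond is the lowest point in 35 of 35 genes, while the blue and open circles overlap.

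Foxj1, the forkhead factor that drives motile ciliogenesis, had scaled log2 values of 3.59, 3.44, 3.97 and 4.17 in vehicle replicates 1 to 4. In AZD1480 replicates 1 to 4 its values were -2.11, 3.83, 3.87 and 3.93. AZD1480 replicate 1 thus stood alone, 63.2-fold below the median of the other 7 arrays, and the other 3 AZD1480 arrays lay inside the vehicle range. Its probe lies on chromosome 11 at 116192214 to 116192273 (mm9, minus strand). The RFX factors had narrower gaps. Rfx2, a factor of multiciliated cells and of sperm, was at -1.45, -1.91, -1.89 and -1.68 in vehicle and at -4.35, -1.72, -2.19 and -1.57 in AZD1480, a 6.16-fold gap. Rfx3, which also acts in cells with primary cilia, was at -3.34, -3.43, -2.91 and -2.80 in vehicle and at -4.54, -3.48, -3.02 and -3.08 in AZD1480, a 2.76-fold gap. The same array was low for all 3 regulators, and the vehicle and remaining AZD1480 arrays overlapped. The 3 kept probes of Rfx3 gave gaps of -1.81, -1.47 and -2.28 log2.

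Radial spoke heads are built from Rsph1, Rsph4a and Rsph9. Rsph9 values were 3.36, 3.51, 3.64 and 4.00 in vehicle and -0.20, 3.33, 3.79 and 3.52 in AZD1480. For Rsph1 the values were 3.00, 3.06, 3.15 and 3.83 in vehicle and -0.62, 3.05, 3.18 and 3.10 in AZD1480. Both genes were thus about alike in their gap on AZD1480 replicate 1, 13.2-fold for Rsph9 and 13.1-fold for Rsph1. Rsph4a was at 0.56, 0.33, 0.57 and 0.78 in vehicle and at -4.38, 0.45, 0.31 and 0.19 in AZD1480, a 28.5-fold gap. In the 3 AZD1480 arrays other than replicate 1, Rsph4a reached from just below the lowest vehicle array to within the vehicle range. Second probes of Rsph1 and Rsph4a gave gaps of -3.97 and -6.22 log2.

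The 7 dynein genes had a median gap of -6.43 log2 with dim probes at their bounds, and a range of -8.64 to -3.23. Dynlrb2, a light chain of the roadblock type, was at 4.53, 4.39, 4.61 and 5.25 in vehicle and at -4.10, 4.34, 4.77 and 4.54 in AZD1480. Dnali1, a light intermediate chain of the inner arm, was at 2.81, 2.63, 3.18 and 3.29 in vehicle and at -5.42, 2.66, 2.80 and 2.75 in AZD1480. AZD1480 replicate 1 was 398-fold below the median of the other 7 arrays for Dynlrb2 and 298-fold for Dnali1. Both probes were still well above background there. Dnah5 and Dnah11, heavy chains of the outer arm, were not, and their gaps are lower bounds of at least 86.4-fold and at least 219-fold. Dnah9, another outer arm heavy chain, was 24.5-fold lower, but it also spread over 2.38 log2 among the other 7 arrays. The outer arm intermediate chains Dnaic1 and Dnaic2 had gaps of 9.39-fold and 11.0-fold.

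Among the genes of the molecular ruler and its linkers, Ccdc113 had the widest gap of all members. It was at 2.57, 2.79, 2.77 and 3.27 in vehicle and at -7.42, 2.95, 2.85 and 3.00 in AZD1480. The probe (chromosome 8, 98082729 to 98082788, mm9, plus strand) was not well above background on AZD1480 replicate 1, so that array was at least 1081-fold lower. Ccdc40, which with Ccdc39 sets the spacing of arms and spokes along the doublet, was at 1.97, 1.72, 1.99 and 2.44 in vehicle and at -5.98, 1.68, 2.02 and 2.13 in AZD1480. The gap was 251-fold for Ccdc40 and 70.8-fold for Ccdc39. A second probe of Ccdc40 gave -6.51 log2 and was not well above background on that array.

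Tektins form filaments in the wall of the doublet. Tekt1 was at 3.69, 3.84, 4.08 and 4.48 in vehicle and at -3.63, 4.10, 3.87 and 4.02 in AZD1480, a 201-fold gap that its second probe matched (-7.65 and -7.72 log2). Tekt4 was at 1.77, 1.34, 1.95 and 2.46 in vehicle and at -3.91, 1.52, 1.85 and 1.93 in AZD1480, a 53.9-fold gap. Tekt2 had the narrowest gap of the 3, 6.30-fold.

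The central apparatus, which surrounds the central pair, was represented by Spag6, Spag16, Spag17 and Hydin. Spag6 was at 1.56, 1.56, 1.71 and 2.26 in vehicle and at -6.23, 1.66, 1.89 and 1.51 in AZD1480, a 238-fold gap. Its probe matches the copy that RefSeq now names Spag6l on chromosome 16. Probes for the related copy named BC061194 were well above background on at most 1 array, and the split of signal between such near copies is uncertain. Hydin was at -0.66, -0.83, -1.05 and -0.70 in vehicle and at -5.14, -0.56, -0.99 and -0.57 in AZD1480, a 21.8-fold gap. The 3 kept Hydin probes gave gaps of -4.45, -5.80 and -5.28 log2, the last 2 being not well above background there. Spag16 was at least 10.8-fold lower and Spag17 at least 7.35-fold lower, both being not well above background on AZD1480 replicate 1.

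The 11 other ciliary genes ranged furthest, from -9.41 to -0.62 log2 on AZD1480 replicate 1. Tppp3, a tubulin-binding protein of ciliated cells, was at 3.88, 3.92, 4.07 and 4.53 in vehicle and at -0.17, 3.85, 4.22 and 4.06 in AZD1480, an 18.9-fold gap. Lrrc23, a radial spoke protein, was at 2.94, 3.06, 3.08 and 4.07 in vehicle and at -5.66, 3.31, 3.26 and 3.13 in AZD1480, a 442-fold gap. Both had 1 low array, AZD1480 replicate 1, and Lrrc23 had a high one, vehicle replicate 4. The narrowest gaps were in Mlf1 and Mns1. Mlf1, which ciliated cells share with other tissues, was at 3.37, 3.38, 3.61 and 3.58 in vehicle and at 1.89, 3.30, 3.33 and 3.39 in AZD1480, a 2.80-fold gap. Mns1, a filament protein inside the doublets, was at 2.70, 2.56, 3.17 and 3.01 in vehicle and at 2.18, 2.80, 2.71 and 2.83 in AZD1480, a 1.54-fold gap. For both of them AZD1480 replicate 1 was still the lowest array, yet a clear signal remained on it.

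The remaining members are given by their gaps. Tctex1d4, a light chain of the Tctex family, was 679-fold lower on AZD1480 replicate 1, Stk33, a kinase, 56.1-fold, and Pifo, which acts in ciliary disassembly, 34.5-fold. Enkur, an inner protein of the doublets, was 28.0-fold lower and Ak7, an adenylate kinase, 4.51-fold. Sntn, a protein of the ciliary tip, and Cdhr3, a cadherin of ciliated airway cells, were not well above background there and were at least 24.9-fold and at least 73.3-fold lower. A second probe of Stk33 gave -6.23 log2 beside -5.81. Ift172, a subunit of the intraflagellar transport particle that motile and primary cilia share, was at 1.42, 1.16, 1.41 and 1.68 in vehicle and at -0.72, 1.04, 1.43 and 1.63 in AZD1480. Its gap was 4.40-fold.

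The comparison of AZD1480 with vehicle asks whether these transcripts differ 6 h after JAK inhibition. With all 8 arrays, 0 of 35 members passed limma's test (Benjamini-Hochberg adjusted p under 0.05 over all genes; 0% of genes passed). Likewise 0 members had an unadjusted p under 0.05, against 3.64% of all genes. The median log2 difference of the members, AZD1480 minus vehicle, was -1.42, 34 of 35 were lower (44.8% of all genes) and 1 higher (55.2% of all genes), and 25 were lower by at least 1 log2 (5.53% of all genes). That median rests on 1 array: without AZD1480 replicate 1 it was -0.083, with 25 of 35 members lower (47.7% of all genes), 10 higher (52.3%) and 0 lower by at least 1 log2 (2.69%). Scaled by array medians in place of the 75th percentile, 33 members and 65.5% of all genes were lower in that fit. Within slide 1, which holds that array, the median was -2.57, and within slide 2 it was -0.17. Without the array, slide 1 gave 0.022. In this fit of 3 against 4 arrays again 0 members passed (0% of genes) and 0 had an unadjusted p under 0.05 (4.64% of genes). In 0 members did the groups fail to overlap, either with all arrays (2.67% of genes) or without AZD1480 replicate 1 (4.87% of genes).

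Leaving out that 1 array narrowed the intervals of the treatment difference. Because the array was singled out by its values, the narrowing follows from that choice. The intervals without it make no allowance for the choice and are a description. The median standard error of the members was 1.27 log2 with all 8 arrays and 0.213 without it. With all arrays, the 95% interval lay wholly within 1 log2 of 0 in 1 member. Without AZD1480 replicate 1, intervals included 0 in 35 of 35 members and lay wholly within 1 log2 of 0 in 32. The 3 exceptions were Spag17, Dnah9 and Dnaic2. Spag17 was at 1.31 ± 1.16 (limma's moderated SE, n = 3 and 4), with vehicle replicate 1 dim. Dnah9 was at 0.72 ± 0.67, and its second probe at 0.15. Dnaic2 had the lowest value, -0.31 ± 0.32. For 19 members the 3 AZD1480 arrays lay wholly inside the vehicle range. The share over all genes is not given for this count or for the 32 intervals, so both describe the members alone.

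Foxj1 shows the pattern in 1 gene. Its difference was -1.41 ± 1.32 (limma's moderated SE, n = 4 per group) with all arrays and 0.082 ± 0.21 without AZD1480 replicate 1, with a 95% interval of -0.40 to 0.57. The member with the smallest p over all arrays was Mlf1, at -0.51 ± 0.34 (limma unadjusted p = 0.179, adjusted p = 0.971). Without AZD1480 replicate 1 it was Rsph4a, at -0.24 ± 0.16 (limma unadjusted p = 0.168, adjusted p = 0.986). The lowest difference with all arrays was that of Tctex1d4, at -2.52 ± 2.05, and without that array it was -0.19 ± 0.23.

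**Figure D2:**
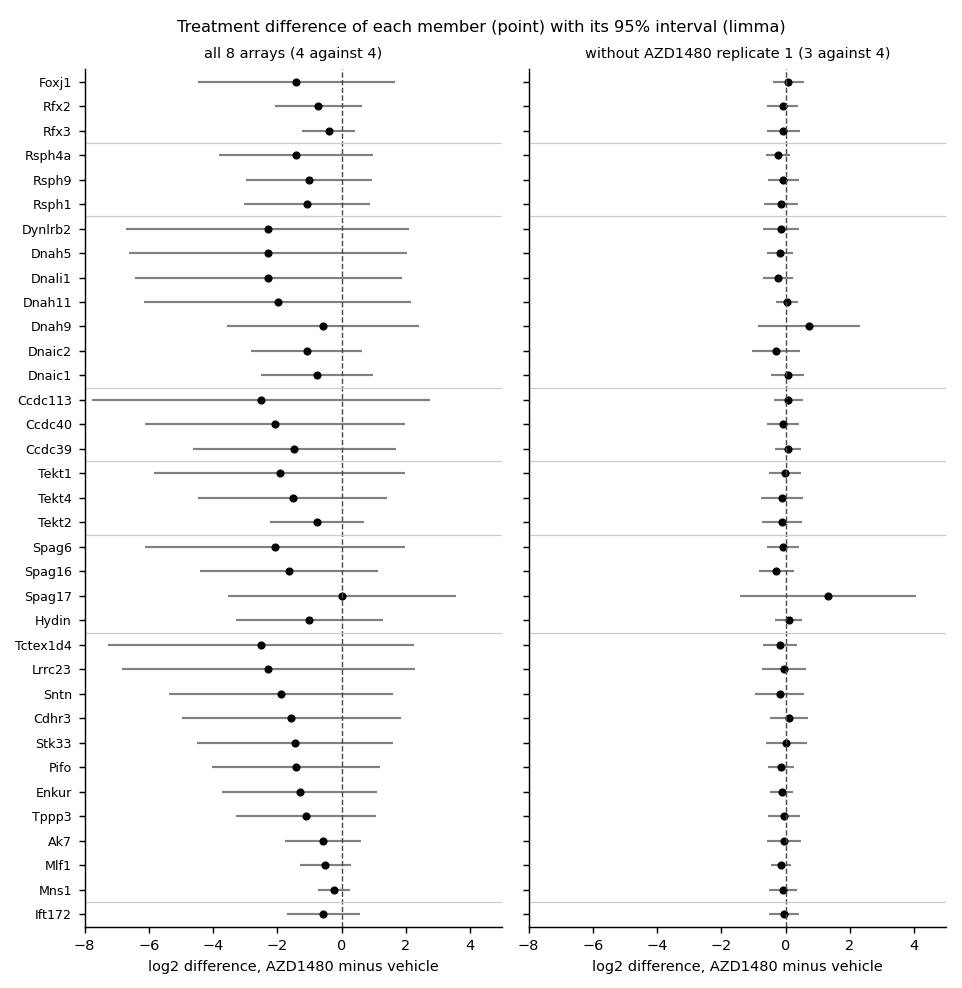
Log2 difference, AZD1480 minus vehicle (x axis), of each motile cilia gene (y axis) with its 95% interval from limma, with all 8 arrays on the left and without AZD1480 replicate 1 on the right. The points on the left have a median of -1.42 with wide intervals, and those on the right a median of -0.083 with narrow ones.

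Other genes of the motile cilium were low on the same array. Of a wider list of 73 motile cilia genes, 66 were tested. AZD1480 replicate 1 was the lowest array for 63 and at least 2-fold below the lowest of the others for 58, with a median gap of -5.20 log2 (-5.03 with the 15 genes that were not well above background there at their bounds). Tubb4b, a tubulin that many cells express, had a gap of 1.54-fold. Cfap126, a protein of the ciliary basal region, and Nme5, a radial spoke protein, had gaps of 26.5-fold and 66.0-fold, and Spef1, a microtubule-binding protein, 3.08-fold. In both fits 0 of the 66 passed limma's test (0 had an unadjusted p under 0.05 with all arrays and 2 without AZD1480 replicate 1), and without AZD1480 replicate 1 the list's median difference was -0.05.

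Genes that set up multiciliated cells were split on AZD1480 replicate 1. Of 13 tested, 6 lay at least 4-fold below the lowest of the other arrays: Deup1, Ccno, Myb, Foxn4, Trp73 and Gmnc. Deup1, which makes the centrioles of multiciliated cells, was 22.9-fold lower, Ccno, a cyclin-like gene of the same step, 71.1-fold, and Myb, a transcription factor also of blood progenitors, 41.1-fold. Foxn4, Trp73 and Gmnc are named after their values were seen; Gmnc, an early regulator of the multiciliated fate, was at least 120-fold lower. The probe assigned to Mcidas, another early regulator, had a gap of -0.58 log2. Its profile lay within 0.063 log2 of that of the probe for the myeloid gene Itgam on every array, each profile being centred on its own mean, so whether it reports Mcidas is uncertain. The other 6, Rfx1, Rfx4, E2f4, E2f5, Plk4 and Cep152, which other cells also use, had gaps of -0.43 to 0.35 log2.

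Transport genes that primary cilia need as well had narrower gaps. Of 33 tested genes of intraflagellar transport and the primary cilium, AZD1480 replicate 1 was the lowest array for 29 and at least 2-fold below the lowest of the others for 17, with a median gap of -1.30 log2 and a range of -2.68 to 0.19. Bbs1, a subunit of the BBSome, was the 1 gene at least 4-fold below them (6.12-fold below their median), and is named after its value was seen. Ift27, Ift46, Ift43 and Ift57, all subunits of the transport particle, had gaps of 1.65-fold, 1.52-fold, 1.82-fold and 3.23-fold. All 33 were well above background on that array.

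Markers of other cell types on AZD1480 replicate 1 are given beside these values, and their part in the result was not tested. Most oviduct secretory markers were low as well: for 8 of 9 this array was the lowest, and for 5 it lay at least 2-fold below the lowest of the others. Their gaps ranged from -9.82 to 2.65 log2. The exception was Muc16, named after its value was seen, which lay 2.65 log2 above the median of the other arrays. Ovgp1, the oviduct glycoprotein, was at 5.46, 5.83, 6.45 and 6.72 in vehicle and at -3.41, 5.55, 6.70 and 6.41 in AZD1480, a 906-fold gap. Cd24a, a surface marker of epithelium, had a 90.5-fold gap, Sox17, a factor of the oviduct and endometrium, an 18.4-fold gap, and Pax8, a Müllerian epithelial factor, a 2.67-fold gap. General epithelial markers had narrower gaps: over 8 genes the median was -0.46 log2 and 0 lay at least 2-fold below the lowest of the others, with list means of -1.61 to 1.17 over the other arrays and -0.80 on this one.

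Granulosa and gonadal markers were above the median of the other arrays there, with a median gap of 4.42 log2. Of 9 listed, Fshr, Cyp19a1 and Cyp11a1 were not among the genes tested. Of the 6 tested, 3 lay at least 2-fold above the highest of the other 7 arrays (4.61% of all genes). Inhba and Star, named after their values were seen, lay below the highest of the other arrays, as did Foxl2. The list mean was 2.40, against -2.37 to 1.15 on the others. Amhr2, whose promoter drives the transgene, was at 5.50, 0.66, 1.52 and 0.17 in vehicle and at 6.93, 0.72, 0.55 and -0.66 in AZD1480. It was thus high on AZD1480 replicate 1 and on vehicle replicate 1. On vehicle replicate 1 the motile cilia genes had a mean of 0.71, the lowest of the arrays other than AZD1480 replicate 1. Any link between the lists was not tested. Nr5a1, a gonadal transcription factor, and Inha, the inhibin alpha subunit, were 6.01 and 7.41 log2 above the median of the other arrays, while Foxl2, the granulosa factor, was 0.01 above it. All 6 were well above background on AZD1480 replicate 1.

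Stromal, blood and dividing cell markers lay between these lists. Median gaps on AZD1480 replicate 1 were -1.31 log2 for 6 fibroblast, -0.28 for 6 smooth muscle, 0.09 for 5 endothelial, -1.19 for 5 macrophage, 0.34 for 3 T cell, 2.29 for 2 red cell, -1.06 for 4 adipocyte and 0.56 for 4 proliferation markers. Of all these, 1 smooth muscle gene (Acta2) and 2 macrophage genes (Adgre1 and Cd68), named after their values were seen, lay at least 2-fold below the lowest of the other arrays, and 0 lay 2-fold above the highest.

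**Figure D3:**
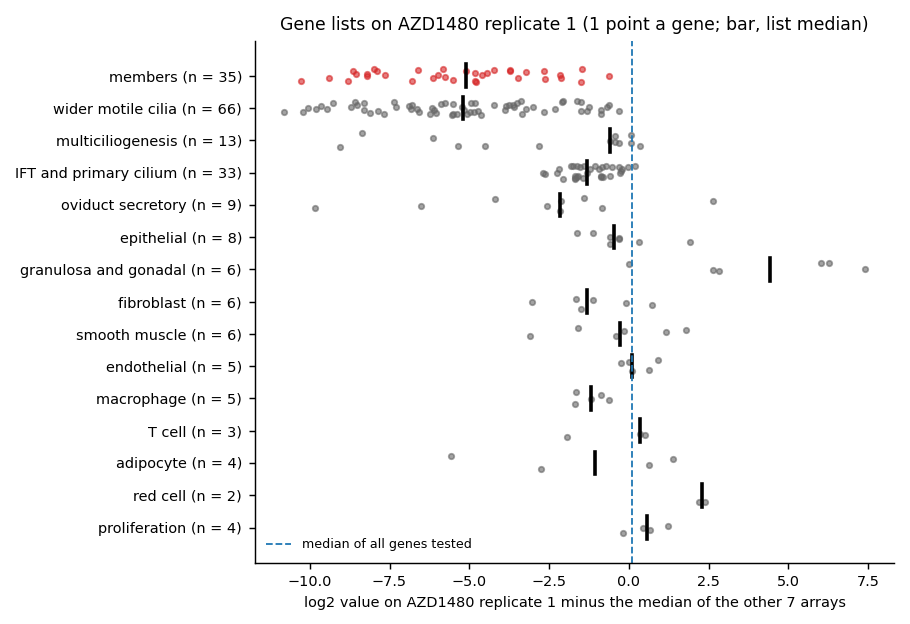
Log2 value on AZD1480 replicate 1 minus the median of the other 7 arrays (x axis), 1 point a gene at its measured value (dim probes included), for the motile cilia genes and 14 other lists (y axis); black bars are list medians and the dashed line is the median of all genes tested. The members and the wider motile cilia list have medians of -5.11 and -5.20, the transport and primary cilium list -1.30 and the granulosa list 4.42.

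**Figure D4:**
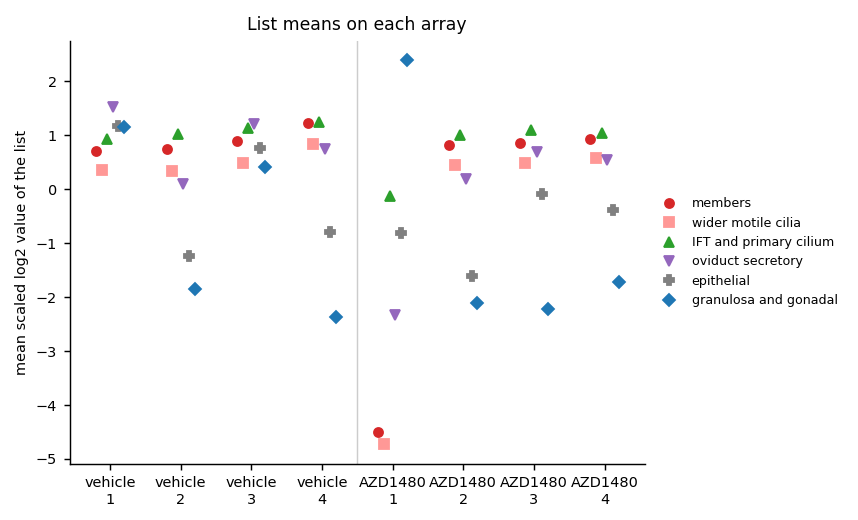
Mean scaled log2 value (y axis) of 6 gene lists on each of the 8 arrays (x axis, 4 vehicle and 4 AZD1480). The members have a mean of 0.71 to 1.23 on 7 arrays and -4.51 on AZD1480 replicate 1, where the granulosa and gonadal list is at its highest, 2.40.

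Genes outside the 35 that were most like them were ranked by the correlation of their values with the mean profile of the members. Over 8 arrays, of which 1 lies far from the rest, the 12 nearest were Ttll9, Hoatz, Spaca9, Zbbx, Eno4, Zmynd10, Pgr, Nek11, 2410004P03Rik, Maats1, Tcp11 and Cfap52, with r from 0.9988 to 0.9996. Of these 12, 9 were well above background on AZD1480 replicate 1, with gaps of -9.27 to -5.96 log2. The other 3, Zbbx, Pgr and 2410004P03Rik, were not, and were at least 94.7-fold, at least 66.4-fold and at least 88.9-fold lower. Pgr is the progesterone receptor. Over the other 7 arrays the nearest 12 were Kcnn4, Ndufaf3, Deup1, Sstr3, Oxtr, Rhbg, Eno4, Ttll9, Tsga10, Uhmk1, Stox1 and A930004D18Rik, with r from 0.948 to 0.976. Eno4 and Ttll9 are in both. The members themselves had a median r of 0.995 over 8 arrays and 0.708 over 7. Over all genes the medians were -0.10 and 0.031. Over the 7 arrays the r of the members ranged from -0.64 to 0.94.

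Among the 15626 genes well above background on all 8 arrays, the widest drops below the lowest of the other 7 arrays on AZD1480 replicate 1 included 7 members and 11 genes of the wider list in the first 50. The first 5 were Fam183b, Alox12e, Drc1, Tctex1d4 and Ovgp1. Of these, Fam183b and Drc1 are in the wider list and Tctex1d4 is a member. Alox12e, an epidermal-type lipoxygenase, was 1451-fold lower there.

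Many further genes were not well above background on AZD1480 replicate 1, where only a bound holds and the order of the gaps is not resolved. By their raw values, the 12 lowest genes outside the members, among 15994 well above background on the other 7 arrays, were Slc14a1, Aoc1, Efcab10, Fam183b, Tmem212, Alox12e, Drc1, Foxa2, Capsl, Elmod1, E030019B06Rik and Iqca. All but Fam183b, Alox12e and Drc1 were dim there. Slc14a1, a urea transporter, was at least 5326-fold lower, and Foxa2, a forkhead factor of endodermal and uterine gland epithelium, at least 287-fold.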

How the data were processed

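Per the labels' protocols, 500 ng of total RNA per tumour was amplified and labelled with Cy3. Agilent Feature Extraction 9.5.3 made the spot values, per the submitters' processing notes. The deposited processed intensity of a spot has its background subtracted and trends within the array removed, per the file headers, with no scaling from array to array. A table of log2 values deposited by the authors served only as an alternative. Gene annotation differs in date between the files of the 2 slides, and the newer was used. Of 39429 probes that were not controls, 48 were the members', 26585 were named through RefSeq accessions, 4437 kept the file's own name and 8359 were left unnamed.

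Outlier-flagged spots were left out, spots of a probe averaged, and log2 intensities scaled by each array's 75th percentile. Probes well above background on at least 4 of 8 arrays were kept, and the brightest kept probe stood for a gene; a clone or accession name was not counted as a gene. For a probe not well above background on AZD1480 replicate 1, "at least" folds set the median of the other 7 arrays against its own value there or, if higher, the dimmest signal called well above background on that array. Treatments were set against each other by limma 3.58.1 under R 4.3.3 (two-sided, Benjamini-Hochberg over 17752 genes, checked on simulated data). The replicates are separate mice, per the labels. Replicate numbers were not used as pairs. The main fits held treatment alone, with no slide term, and slides entered only in the alternatives.

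The members and all lists were chosen with earlier results of these data known, as was the choice of AZD1480 replicate 1, and the motifs were chosen after several had been counted. Array-by-array values are given for Foxj1, Rfx2, Rfx3, the 2 members of each other role with the highest mean signal (4 among other ciliary genes), Ift172 and the member with the smallest p of each fit; in other lists up to 4 genes with the highest mean signal are named. Python 3.11.15 was used for descriptions and motifs. Alternatives were other background, scaling and filter settings, probe averaging, slide terms, array weights, a replicate block and leaving out each array.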

Additional observations from a re-analysis of the deposited data

Results flagged for a closer look

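Within each group of 4 arrays, the gap of the highest or lowest array to its neighbour was divided by the range and set against Dixon's 95% critical value for each member and for the member mean, 72 groups in all. Chance passes about 1 in 20, a rate that does not hold for AZD1480 replicate 1, since that array was singled out by its values; its values below are a description. The value was exceeded in 31, of which 30 were in the AZD1480 group and 1 in the vehicle group. In all 30 the array was AZD1480 replicate 1, low for 29 members and for their mean, which was -4.51.

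Its scaled log2 values were -2.11 for Foxj1, and -0.62, -4.38 and -0.20 for the radial spoke genes Rsph1, Rsph4a and Rsph9. Among the dyneins they were -9.35 for Dnah5, -7.65 for Dnah11, -2.92 for Dnaic1, -2.58 for Dnaic2, -5.42 for Dnali1 and -4.10 for Dynlrb2. The ruler and linker genes were at -6.84 (Ccdc39), -5.98 (Ccdc40) and -7.42 (Ccdc113), and the tektins at -3.63 (Tekt1), -4.28 (Tekt2) and -3.91 (Tekt4). Central apparatus genes were at -6.23 (Spag6), -9.33 (Spag16) and -5.14 (Hydin). Other ciliary genes were at -3.04 (Ak7), -5.66 (Lrrc23), -0.17 (Tppp3), 1.89 (Mlf1), -2.63 (Enkur) and -3.98 (Stk33). Pifo was at -5.02, Cdhr3 at -7.66, Sntn at -9.37 and Tctex1d4 at -6.91. The values of Dnah5, Dnah11, Ccdc113, Spag16, Cdhr3 and Sntn were not well above background.

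The array outside this pattern was vehicle replicate 4, where Lrrc23 was high at 4.07.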

How the results depend on the processing

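In both comparisons 0 members passed limma's test under every alternative run. The number of genes passing was 0 with all arrays under each of them. Without AZD1480 replicate 1 it was 0 to 1, with 1 under median scaling and without vehicle replicate 3 or 4. The median gap on AZD1480 replicate 1, -5.11, was -4.40 with normexp background correction, -4.33 in the authors' value table and -4.71 with a filter on all 8 arrays, which keeps 28 members. The count of members at least 2-fold below the other arrays was 31 to 34 of 35, and 27 of 28 under that filter. With array weights the median difference over all arrays was -0.40. Deviations of same-numbered vehicle and AZD1480 arrays correlated at 0.372, 0.356, 0.091 and 0.0027, and 3 of 4 numbers correlated best with their own. With the replicate block the median stayed at -1.42. Without AZD1480 replicate 1 the block gave -0.14, with 0 members passing. Vehicle replicate 1 is then alone in its block, so the differences equal those with vehicle replicate 1 also left out. Without AZD1480 replicate 1 the median difference was -0.20 under median scaling, which moved the median of all genes by -0.11, so relative to all genes it was -0.096 under both. It was 0.045 without vehicle replicate 4. Within slide 1 that fit leaves 1 AZD1480 array, assumed to vary like the others.

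Leaving out AZD1480 replicate 1 turned the sign of the difference in 9 of 35 members. With all arrays, Spag17 (0.010) was at -0.0038 under quantile normalization, -0.042 under median scaling and -0.37 within slide 1, and -1.10 to 1.31 when 1 array was left out. Dnah9 (-0.59) was at 0.72 within slide 2 and 0.67 with array weights, and at -1.28 to 0.72 with 1 array left out; Foxj1 was then at -1.93 to 0.082. Without AZD1480 replicate 1, Foxj1 (0.082) was at -0.032 under median scaling, -0.17 within slide 2 and -0.033 with array weights, and at -0.036 to 0.21 with another array left out, and Rsph4a was at 0.0064 within slide 1. The cause was not tested. On AZD1480 replicate 1, 7 members were not well above background, and there only a bound holds.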
